A study of Mus musculus with 9 samples.

Results

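Liver transcripts were compared between mice on a high-fat diet that received *Papillibacter cinnamivorans* by gavage (HFD+Pc) and mice on the same diet alone (HFD). The comparison rests on 3 HFD+Pc libraries (replicates 1, 3 and 4) and 3 HFD libraries (replicates 1, 2 and 3), with 3 control libraries (replicates 1, 2 and 4) as background. All were C57BL/6 mice, 45 in all with 15 in each group, which were 6 weeks old at entry, and liver was taken at postnatal day 98. The labels name no genetic change, and HFD and HFD+Pc shared the diet, so the gavage is the labelled difference. The sources used here do not give whether each library came from a single mouse or from pooled mice. P-values therefore reflect only how far these libraries spread. The genes were those with at least 1 FPKM (fragments per kilobase of transcript, scaled to library size) in at least 3 of the 6 libraries, which held for 10610 of 54007 genes or gene models in the deposited table. At the edge of this rule, the third highest value of Tlr13 and Fbxl19 was 1.00035 and 1.00039 FPKM and that of Gm7774 and Gm47976, which stayed outside, was 0.99979 and 0.99939 FPKM. A further 289 genes lay within 10% above the limit and 274 within 10% below it.

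*Papillibacter cinnamivorans* is an anaerobic bacterium, first known for degrading aromatic acids such as cinnamate, whose relatives live in the gut. The liver receives blood from the gut through the portal vein, takes up fatty acids from the blood, oxidises them in mitochondria and peroxisomes, stores them as triglyceride, and makes cholesterol, bile acids and most plasma proteins. On a high-fat diet these pathways are under changed demand, and the resident macrophages (Kupffer cells) and sinusoidal endothelial cells of the liver meet products of gut bacteria first.

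Values per library are given in the order HFD replicates 1, 2 and 3, then HFD+Pc replicates 1, 3 and 4, then control replicates 1, 2 and 4. Differences are HFD+Pc minus HFD in log2(FPKM + 1) ± SE from limma with all 9 libraries (n = 3 per group), which understates changes of low genes, and a gene is called where the Benjamini-Hochberg adjusted p over the 10610 genes is under 0.05. Reads recovered from the FPKM steps numbered 16561984 to 18930267 per library, and 10323 to 10587 genes reached 1 FPKM in each. The floor that 3 reads set in a 1 kb gene was 0.1604 to 0.179 FPKM, which covers counting error only. Hepatocyte markers fitted the tissue label: all 20 listed were tested, and Alb (albumin) stood at 26090 FPKM or more in each of the 6 libraries, whereas 12 of 23 markers of pancreas, gut, muscle and gallbladder, among them Prss1, were at 0 in all 6.

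HFD replicate 3 stood apart within its group. On the second principal component, which held 15.3% of the variance, HFD replicates 1 and 2 lay at 16.8 and 18.5, HFD replicate 3 at 4.18 and the HFD+Pc libraries between -10.3 and -7.25. HFD replicate 3 was singled out from these same values and was the HFD library nearest to HFD+Pc. Leaving it out therefore widens the difference on this component, and calls made without it are a description, not independent support. Counts below are given with all libraries, and genes of a list whose call differs without HFD replicate 3 are named beside it. The median difference of a list is a description: for 20 of the 42 lists its sign changed when 1 library was left out.

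With all libraries 69 of the 10610 genes were called (percent called 0.65), 21 higher (0.198) and 48 lower (0.452) in HFD+Pc. These shares are the background of each count of called list members below. In each of the 69 the 3 HFD+Pc libraries lay on 1 side of the 3 HFD libraries, but such a lack of overlap held for 20% of all genes tested, 10.4% with HFD+Pc above and 9.59% with HFD+Pc below. After rescaling to equal sums per library (TPM), which moved the median difference of all genes from 0.01 to -0.04, 19 were higher and 92 lower. At an unadjusted p under 0.05, 817 genes were higher and 856 lower. For 77.2% of the 10610 genes (8187) the difference ± 2 SE lay within 0.5 of 0. Of 89 genes with a difference of at least 1 in either direction, 19 were called, 3 higher and 16 lower. Without HFD replicate 3, 155 genes were called (1.46), 48 higher (0.452) and 107 lower (1.01), and 60 of the 69 were among them. When each library was left out in turn, 4 of the 69 genes were called in every one of the 9 fits (Atp5k, Rps19bp1, Gm9385 and 1 model with no Ensembl identifier). A further 6 genes were called in none of these fits and 29 in 1, which for 26 genes was the fit without HFD replicate 3. All 69 kept their sign in these fits, which the lack of overlap between their HFD and HFD+Pc libraries fixed in advance. With limma-voom on the recovered reads 122 genes were called (1.15), 48 higher (0.452) and 74 lower (0.697), 58 of them shared with the 69.

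**Figure D1:**
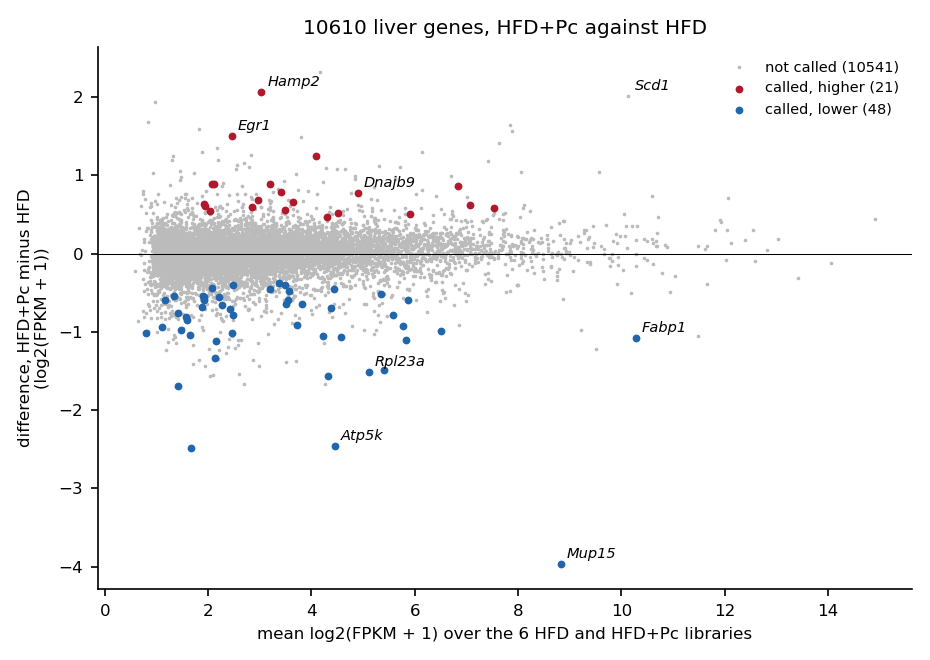
Difference HFD+Pc minus HFD against mean level for the 10610 genes, both on the log2(FPKM + 1) scale, with 1 point per gene and called genes in colour. The 21 genes called higher reach up to Hamp2 (2.06), the 48 called lower reach down to Mup15 (-3.97), and Scd1 (2.01) is not called.

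Fabp1 had the highest mean level of all called genes over the 6 libraries. It encodes the fatty acid binding protein that carries fatty acids through the hepatocyte cytosol. Its level was 1897, 1717 and 1809 FPKM in HFD and 682, 914 and 1001 FPKM in HFD+Pc, against 2861, 2341 and 1955 FPKM in control. The HFD+Pc libraries were below all others and the HFD libraries below all control libraries. Fabp1 fell by 1.08 ± 0.18 (limma adjusted p = 0.0423). Among the 9 fits without 1 library it was called without control replicate 1, control replicate 4 and HFD replicate 3, with a highest limma adjusted p = 0.1301 in the others. The promoter of Fabp1, a textbook target of the fatty acid receptor PPAR-alpha, is shown because it is the called gene of highest mean level. RefSeq places it in GRCm38.p6 at chr6:71199629-71199878, plus strand, just before the gene's start, and capitals mark the known PPAR site.
Fabp1 promoter: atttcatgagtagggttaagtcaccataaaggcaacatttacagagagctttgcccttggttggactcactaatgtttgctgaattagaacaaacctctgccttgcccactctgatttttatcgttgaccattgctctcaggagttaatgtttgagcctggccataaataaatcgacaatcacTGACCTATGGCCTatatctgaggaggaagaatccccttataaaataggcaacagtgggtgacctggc
The site, TGACCT and TGGCCT with 1 base of any kind between them, was searched on both strands. It lay 67 to 55 bases before the start and was found in 6 of 32851 promoter windows (0.0183%). No other motif was searched in this promoter. A match describes letters and not binding. Some other genes tied to PPAR-alpha, taken from the panel, follow. They do not stand for all of its targets, and the part of PPAR-alpha in the Fabp1 values was not tested. Cyp4a14, a fatty acid hydroxylase, was at 1573, 847 and 2301 against 1874, 1519 and 1569 FPKM (0.18 ± 0.32, limma adjusted p = 0.8272), Cpt1a, which admits fatty acids to mitochondria, differed by -0.07 ± 0.13 and Ppara itself by 0.24 ± 0.10 (limma adjusted p = 0.8388 and 0.2805).

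Fabp1 was the only call among 17 tested genes of fatty acid uptake and binding (median 0.17, and 0.04 without HFD replicate 2); without HFD replicate 3 Fabp4 was called lower and Acsl4 higher as well. No gene was called among 30 of beta-oxidation and ketogenesis or 16 Cyp4a and acyl-CoA thioesterase genes. In the first list 22 differences were above 0 (52.5% of all genes were), with a median of 0.12; without HFD replicate 2 these were 16 and 0.0121, and without HFD replicate 3 Fgf21 was called. The median of the second was 0.12, and 0.40 without HFD replicate 3 or -0.03 without HFD replicate 2. In beta-oxidation Hadh, the mitochondrial 3-hydroxyacyl-CoA dehydrogenase, had 89.7, 74.8 and 85.3 FPKM in HFD and 99.6, 110.3 and 107 FPKM in HFD+Pc (0.34 ± 0.09, limma adjusted p = 0.1267). Bdh1, which makes the ketone body beta-hydroxybutyrate, differed by 0.26 ± 0.09 (limma adjusted p = 0.2122). The libraries of these 2 genes did not overlap. Among 24 genes of triglyceride synthesis and lipid droplets none was called and the median was -0.05 (-0.0178 without HFD replicate 3 and -0.10 without HFD+Pc replicate 3). The lipid droplet protein Cidec was at 10.04, 4.96 and 6.03 FPKM in HFD and 3.70, 1.38 and 3.25 FPKM in HFD+Pc, without overlap (-1.09 ± 0.32, limma adjusted p = 0.1609), and the lipase Lipe differed by -0.37 ± 0.11 (limma adjusted p = 0.162). Nudt19, a peroxisomal enzyme that degrades coenzyme A, was called: 16.1, 14.1 and 17.3 FPKM in HFD became 22.3, 22.2 and 22.3 FPKM in HFD+Pc (0.47 ± 0.09, limma adjusted p = 0.04846). Nudt19 was among the 5 called genes nearest to the threshold and kept its call without HFD replicate 3 alone (highest limma adjusted p = 0.1398).

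**Figure D2:**
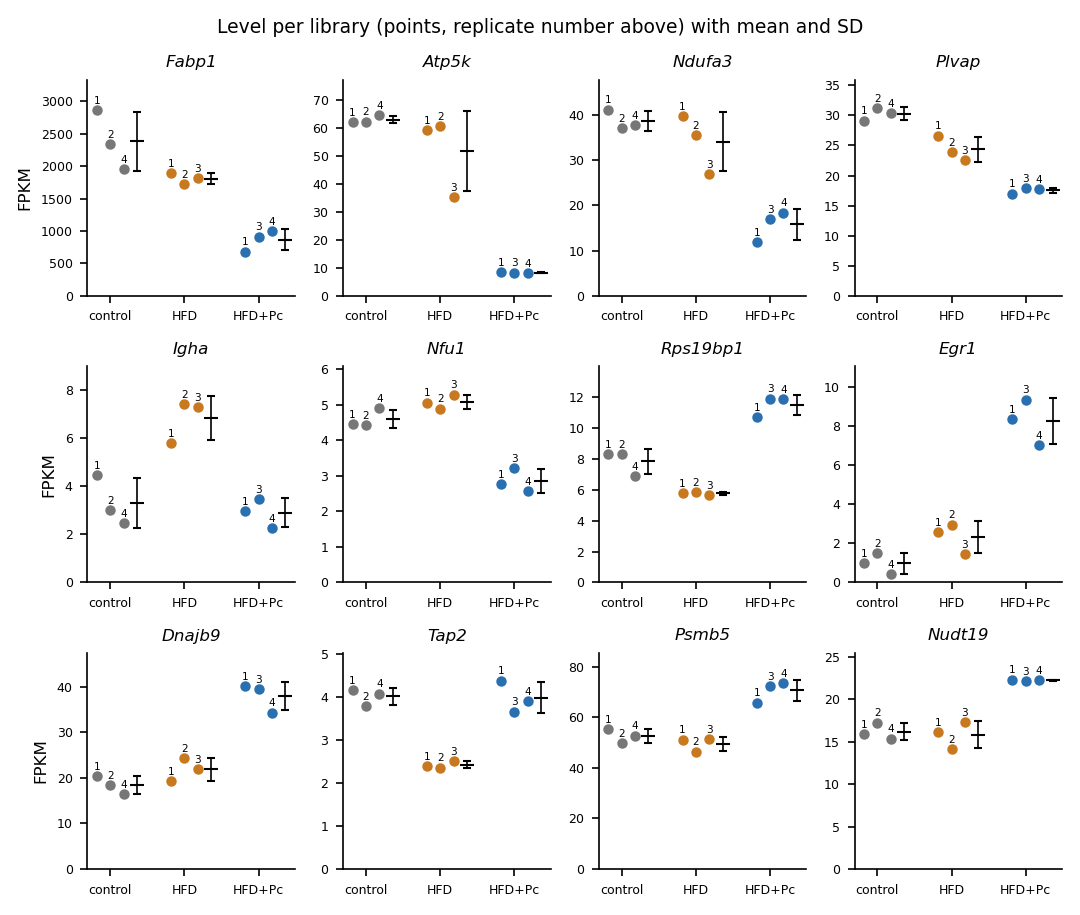
FPKM of 12 called genes in each library, with 1 point per library, its replicate number above it and the group mean ± SD beside it. HFD and HFD+Pc do not overlap in any panel; Atp5k stands near 8 FPKM in all 3 HFD+Pc libraries, and HFD replicate 3 lies below the other HFD libraries in Atp5k and Ndufa3.

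Fatty acid desaturation and elongation showed how far 1 library bears on the comparison. Scd1, the stearoyl-CoA desaturase, was at 226, 241 and 3173 FPKM in HFD and 2609, 2077 and 2111 FPKM in HFD+Pc, against 4569, 4900 and 6869 FPKM in control. HFD replicate 3 was above every HFD+Pc library. Scd1 was not called with all libraries (2.01 ± 0.86, limma adjusted p = 0.304), and it differed by 3.27 once HFD replicate 3 was left out (limma adjusted p = 0.0002607). The same split of the HFD libraries appeared in Elovl5, an elongase of polyunsaturated fatty acids, with 179, 140.0 and 444 FPKM in HFD and 329, 360 and 319 FPKM in HFD+Pc. Fads1 and Fads2, the desaturases of that pathway, had 71.8, 71.3 and 139.8 and 137, 129 and 298 FPKM in HFD, and 108, 133 and 136 and 200.6, 284 and 267 FPKM in HFD+Pc. Elovl2 had 129, 124 and 229 FPKM in HFD and 220.5, 232 and 200.9 FPKM in HFD+Pc. In all 5 genes the first 2 HFD libraries were below, and HFD replicate 3 within or above, the range of HFD+Pc. Of 22 tested genes of fatty acid synthesis, desaturation and elongation none was called with all libraries (median 0.32, and 0.16 without HFD replicate 1), and without HFD replicate 3 these 5 were called higher and none lower (median 0.61). For Elovl5, Fads1, Fads2 and Elovl2 the differences were then 1.08, 0.80, 0.89 and 0.77 (limma adjusted p = 0.01032, 0.01634, 0.03547 and 0.03547), against 0.59, 0.48, 0.51 and 0.49 with all libraries (limma adjusted p = 0.4607, 0.3607, 0.4444 and 0.3168). Elovl6 (0.82 ± 0.35) and Acaca (0.55 ± 0.30) were called in neither fit (limma adjusted p = 0.295 and 0.4136 with all libraries).

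Further genes were called only once HFD replicate 3, singled out from these same values, was left out. Ugt1a5, a UDP-glucuronosyltransferase that shares exons with the other Ugt1a genes, was at 3.49, 5.16 and 19.4 FPKM in HFD and 21.6, 21.3 and 23.9 FPKM in HFD+Pc (1.49, limma adjusted p = 0.178, and 2.14, limma adjusted p = 0.002572 without that library). Tm7sf2, a sterol reductase of cholesterol synthesis, was at 14.1, 18.8 and 28.7 and then 39.1, 37.3 and 41.2 FPKM (0.96, limma adjusted p = 0.09438, and 1.22, limma adjusted p = 0.01084). Both kept HFD replicate 3 below HFD+Pc. Fgf21, a fasting hormone of the liver, Klb, its co-receptor, the cytochrome Cyp2c55 and the acyl-CoA synthetase Acsl4 were likewise called higher in that fit alone, by 0.85, 0.43, 0.81 and 0.64. Genes called lower in that fit alone included the interferon-induced Irf7 (18.3, 20.7 and 10.2 against 10.5, 5.86 and 8.44 FPKM), Ifit3 and Oasl2, with differences of -1.18, -0.88 and -0.80 (limma adjusted p = 0.04351, 0.03071 and 0.04817). Of 31 tested interferon response genes 25 had a difference below 0 (47.4% of all genes did) with all libraries and none was called (median -0.13, and -0.05 without HFD replicate 1), whereas without HFD replicate 3 these 3 were called and the median was -0.31. Fabp4, a fatty acid binding protein of adipocytes and macrophages, was at 2.83, 2.18 and 1.23 and then 1.33, 1.24 and 1.53 FPKM (-0.56, limma adjusted p = 0.04817 without HFD replicate 3).

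**Figure D3:**
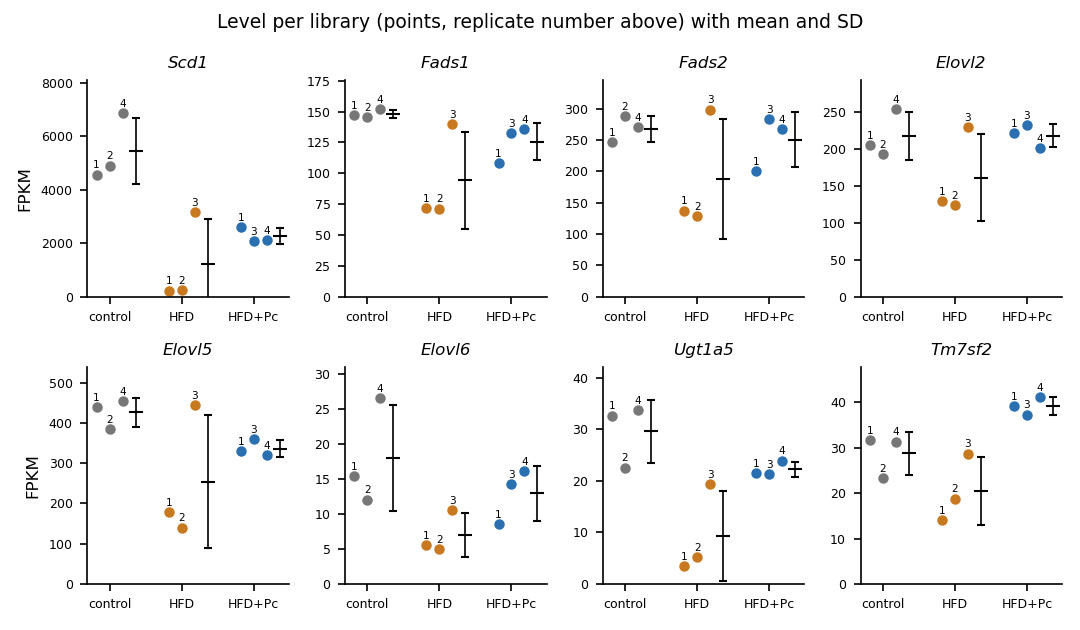
FPKM of 8 lipid and conjugation genes in each library, with 1 point per library, its replicate number above it and the group mean ± SD beside it. HFD replicates 1 and 2 are low in every panel and HFD replicate 3 is higher, for Scd1 3173 FPKM against 226 and 241.

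Cholesterol synthesis and uptake held 27 tested genes, of which 24 had a difference above 0 (52.5% of all genes did) and none was called (median 0.32); without HFD replicate 3, Tm7sf2 alone was called. Here the HFD+Pc libraries differed among themselves. Hmgcs1, which makes the precursor of mevalonate, was at 73.2, 77.8 and 120.3 FPKM in HFD and 70.6, 140.5 and 174.5 FPKM in HFD+Pc. Insig1, which retains the sterol sensor in the endoplasmic reticulum, was at 57.9, 81.5 and 104.8 and then 49.96, 117.6 and 120.1 FPKM. In both genes HFD+Pc replicate 1 lay near HFD replicate 1 and HFD+Pc replicates 3 and 4 above all HFD libraries. The differences were 0.44 ± 0.33 for Hmgcs1 and 0.17 ± 0.37 for Insig1 (limma adjusted p = 0.569 and 0.859). The median of the list was 0.62 without HFD+Pc replicate 1 and 0.08 without HFD+Pc replicate 4.

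In iron handling the called gene was Hamp2, 1 of 2 mouse genes for hepcidin-type peptides; hepcidin, made from Hamp, is the liver hormone that blocks iron export by degrading ferroportin. Hamp2 was at 1.78, 2.80 and 4.999 FPKM in HFD, 15.8, 17.7 and 13.6 FPKM in HFD+Pc and 8.25, 9.99 and 12.1 FPKM in control, and rose by 2.06 ± 0.25 (limma adjusted p = 0.01552). Every HFD+Pc library was above every control library, and every HFD library below. Hamp, at a far higher level, was at 652, 805 and 2571 FPKM in HFD and 311, 709 and 489 FPKM in HFD+Pc, so that the groups overlapped (-1.21 ± 0.52, limma adjusted p = 0.304). The Hamp2 call was lost without HFD replicate 2 and without each HFD+Pc replicate in turn (highest limma adjusted p = 0.09655). The promoters of both genes come from RefSeq in GRCm38.p6 (minus strand, chr7:30944030-30944279 for Hamp and chr7:30924182-30924431 for Hamp2). They are shown because the 2 genes are neighbours with similar promoters, and only Hamp2 was called. Capitals mark 2 known elements of the hepcidin promoter, the BMP-responsive element GGCGCC and the STAT3 site TTCTTGGAA.
Hamp promoter: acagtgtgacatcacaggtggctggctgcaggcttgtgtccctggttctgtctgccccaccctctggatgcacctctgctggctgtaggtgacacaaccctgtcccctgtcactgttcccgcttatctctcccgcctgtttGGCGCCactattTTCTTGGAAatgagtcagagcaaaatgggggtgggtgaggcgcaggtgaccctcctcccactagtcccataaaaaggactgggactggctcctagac
Hamp2 promoter: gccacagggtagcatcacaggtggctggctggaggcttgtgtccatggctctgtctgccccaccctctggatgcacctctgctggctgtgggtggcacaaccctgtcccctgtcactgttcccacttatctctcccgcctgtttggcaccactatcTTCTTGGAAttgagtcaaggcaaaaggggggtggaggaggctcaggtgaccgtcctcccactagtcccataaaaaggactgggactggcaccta
The windows were 89.7% identical. On both strands GGCGCC was found in Hamp, 109 to 104 bases before the start, and not in the Hamp2 window, while TTCTTGGAA was found in both, 97 to 89 bases before the start of Hamp and 94 to 86 before that of Hamp2; the motifs do not overlap. Of 32851 promoter windows 9.59% held GGCGCC and 0.365% held TTCTTGGAA. These matches were not tested for use. Hamp2 held 0.34% of the reads summed over both genes in HFD and 4.27% in HFD+Pc. The sum, which is mostly Hamp and was highest in HFD replicate 3, differed by -1.15.

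Of 22 tested genes of metallothioneins and iron handling Hamp2 was the only call, and the median was 0.0016 (-0.05 after rescaling to equal sums, and -0.06 to 0.075 without HFD+Pc replicate 3 or 1). Tfrc, the transferrin receptor, was at 2.78, 3.45 and 2.42 FPKM in HFD and 5.15, 4.69 and 3.68 FPKM in HFD+Pc, without overlap (0.50 ± 0.13, limma adjusted p = 0.1165). Slc40a1, which encodes ferroportin, was at 34.2, 29.98 and 26.5 and then 27.1, 19.9 and 20.5 FPKM, with overlap (-0.42 ± 0.13, limma adjusted p = 0.1713). Mt1, a metallothionein, differed by -0.18 ± 0.58 (limma adjusted p = 0.9075). Nfu1, which loads iron-sulfur clusters onto mitochondrial enzymes, was called lower: 5.06, 4.89 and 5.29 FPKM in HFD became 2.78, 3.22 and 2.58 FPKM in HFD+Pc, below the 4.47, 4.43 and 4.91 FPKM of control (-0.66 ± 0.08, limma adjusted p = 0.01398). Its call was lost without HFD replicate 2 or HFD+Pc replicate 4, with limma adjusted p up to 0.06249, and no near-identical copy of it with reads was found.

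Among subunits of the respiratory chain single genes stood far from their complexes. Atp5k, subunit e of the ATP synthase, was at 59.2, 60.7 and 35.3 FPKM in HFD, 8.45, 8.33 and 8.17 FPKM in HFD+Pc and 62.1, 62.3 and 64.5 FPKM in control. It fell by 2.46 ± 0.17 (limma adjusted p = 0.001347) and was called in all 9 fits without 1 library. Atp5g1, a subunit of the membrane ring of the same enzyme, rose from 19.3, 16.4 and 18.6 to 24.98, 25.2 and 28.7 FPKM (0.51 ± 0.09, limma adjusted p = 0.04845) but was called in none of those 9 fits (highest limma adjusted p = 0.1432). Of 42 tested nuclear genes of complexes II to V these 2 were the only calls (0.65% of all genes were called). The median was 0.0046 (-0.06 after rescaling to equal sums, and -0.03 to 0.065 without HFD replicate 2 or HFD+Pc replicate 1). Without HFD replicate 3 Atp5k alone was called. Atp5h, of the stalk, and Atp5o, which joins stalk and head, differed by 0.41 ± 0.08 and -0.41 ± 0.08 (limma adjusted p = 0.05779 and 0.05468), in opposite directions within 1 enzyme, and Cox8a of cytochrome oxidase by 0.52 ± 0.11 (limma adjusted p = 0.07053).

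In complex I, Ndufa3 fell from 39.7, 35.6 and 26.95 to 11.97, 16.99 and 18.4 FPKM (-1.07 ± 0.17, limma adjusted p = 0.0423) and Ndufc2 from 52.1, 49.9 and 42.3 to 31.5, 33.8 and 34.2 FPKM (-0.52 ± 0.09, limma adjusted p = 0.04535). Both are accessory subunits, and HFD replicate 3 was the lowest HFD library for each. Both were called in 1 of the 9 fits without 1 library, that without HFD replicate 3 (highest limma adjusted p = 0.1375 and 0.1398). Of 37 tested complex I genes none other was called (0.65% of all genes were called). In this list 9 lay below HFD without overlap and 4 above (over all genes 9.59% and 10.4%), and the median was -0.09 (-0.04 without HFD replicate 1). Without HFD replicate 3 Ndufv3, another accessory subunit, was called lower too (-0.63, limma adjusted p = 0.0461). Of 76 mitochondrial ribosomal proteins Mrps21 alone was called, with 27.2, 27.6 and 22.9 FPKM in HFD and 9.52, 12.6 and 14.02 FPKM in HFD+Pc (-1.06 ± 0.14, limma adjusted p = 0.01552). Mrps21 lost its call without HFD replicates 1 or 2 or HFD+Pc replicate 3, with limma adjusted p up to 0.08406. The 13 genes encoded in the mitochondrial genome had a median of 0.40 and no call. Without HFD replicate 1 or 2 the median was 0.23 or 0.20, and without HFD replicate 3 mt-Nd6, a subunit of complex I, was called higher (0.89, limma adjusted p = 0.04997). Values differed within the list: mt-Atp6 had a mean of 122.6 FPKM in HFD and 349.9 FPKM in HFD+Pc (1.41 ± 0.44, limma adjusted p = 0.178), whereas mt-Co1 was at 17060, 15210 and 21230 and then 16260, 15940 and 16770 FPKM (-0.11 ± 0.16, limma adjusted p = 0.7772). Some of these genes overlap, and the strand setting of the counting is not given in the sources used here.

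Calls among ribosomal protein genes went in both directions. Rpl23a fell from 64.4, 67.6 and 43.05 to 18.7, 18.1 and 21.5 FPKM (-1.51 ± 0.17, limma adjusted p = 0.01177), Rps29 from 100.8, 86.8 and 63.7 to 32.6, 36.2 and 45.8 FPKM (-1.10 ± 0.19, limma adjusted p = 0.0423) and Rpl41, the smallest ribosomal protein, from 145, 119.5 and 120.8 to 75.7, 50.2 and 68.5 FPKM (-0.99 ± 0.17, limma adjusted p = 0.04535). Rpl10, which completes the large subunit, rose from 151.7, 149.5 and 150.3 to 209.7, 223 and 247.5 FPKM (0.58 ± 0.10, limma adjusted p = 0.0423). These were the 4 calls among 80 tested cytosolic ribosomal genes, where 0.65% of all genes were called. The median of the list was 0.05 with all libraries and -0.01 after rescaling to equal sums, and -0.05 to 0.12 without HFD+Pc replicate 4 or HFD replicate 1. Rpl28 (60.5, 61.1 and 39.5 against 23.8, 22.96 and 33.02 FPKM) and Rps21 (74.0, 71.1 and 75.1 against 102.6, 98.5 and 131 FPKM) were the nearest below the threshold, in opposite directions (limma adjusted p = 0.05079 for both), and without HFD replicate 3 Rpl28 was called (-1.18, limma adjusted p = 0.01032). Rpl23a lost its call without HFD replicate 2 or HFD+Pc replicate 3, with limma adjusted p up to 0.05637, and Rps29, Rpl41 and Rpl10 kept theirs without HFD replicate 3 alone (highest limma adjusted p = 0.1398, 0.1395 and 0.1395). Rps19bp1, a nucleolar protein that binds the ribosomal protein Rps19, was called in every fit: 5.79, 5.86 and 5.66 FPKM in HFD became 10.7, 11.9 and 11.9 FPKM in HFD+Pc, above the 8.29, 8.31 and 6.89 FPKM of control (0.88 ± 0.09, limma adjusted p = 0.008291).

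In protein quality control Dnajb9, a co-chaperone of BiP in the endoplasmic reticulum, rose from 19.3, 24.4 and 21.96 to 40.05, 39.4 and 34.3 FPKM (0.77 ± 0.11, limma adjusted p = 0.0235), with 20.3, 18.4 and 16.4 FPKM in control. It was called without each control replicate and without HFD replicate 3, and not without the other HFD or HFD+Pc libraries (highest limma adjusted p = 0.1217). Of 27 tested genes of endoplasmic reticulum chaperones and the unfolded protein response it was the only call, and 23 had a difference above 0 (52.5% of all genes did; median 0.13, 0.07 after rescaling to equal sums, and 0.08 or 0.20 without HFD+Pc replicate 4 or 1). Hspa5, which encodes BiP, was at 75.7, 104.4 and 83.5 and then 96.0, 138 and 145 FPKM, with overlap (0.51 ± 0.17, limma adjusted p = 0.192), and the chaperone Hyou1 was at 6.90, 11.1 and 7.35 and then 9.35, 17.4 and 16.2 FPKM (0.68 ± 0.23, limma adjusted p = 0.2079). In the amino acid stress response no gene of 11 was called (median 0.04, -0.02 after rescaling, and -0.06 or 0.16 without HFD+Pc replicate 4 or 1). Its transcription factor Atf4 was at 28.8, 31.97 and 27.8 and then 15.9, 19.2 and 20.7 FPKM (-0.65 ± 0.13, limma adjusted p = 0.05468) and the amino acid transporter subunit Slc3a2 differed by -0.36 ± 0.09 (limma adjusted p = 0.1109).

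Psmb5, the chymotrypsin-like catalytic subunit of the proteasome, rose from 51.2, 46.5 and 51.3 to 65.8, 72.5 and 73.7 FPKM (0.50 ± 0.09, limma adjusted p = 0.0423), the only call among 43 tested proteasome subunits (median 0.02, -0.04 after rescaling to equal sums, and -0.016 or 0.10 without HFD+Pc replicate 4 or 1). Without HFD replicate 3 Psmd5, an assembly chaperone of the proteasome, was called higher too (0.44, limma adjusted p = 0.04817). Tap2, a subunit of the transporter that loads peptides for MHC class I, was at 2.39, 2.36 and 2.52 FPKM in HFD, 4.39, 3.66 and 3.92 FPKM in HFD+Pc and 4.17, 3.80 and 4.08 FPKM in control. It rose by 0.54 ± 0.08 (limma adjusted p = 0.0235) and was the only call among 19 tested genes of MHC class I presentation and the immunoproteasome (median 0.03, -0.03 after rescaling, and -0.0059 or 0.12 without HFD replicate 3 or 2). Its partner Tap1 was at 7.08, 5.85 and 4.79 and then 6.88, 5.57 and 4.66 FPKM (-0.04 ± 0.18, limma adjusted p = 0.9296). Psmb5 kept its call without HFD replicate 3 alone (highest limma adjusted p = 0.1395) and Tap2 without control replicates 2 and 4 and HFD replicate 3 (highest limma adjusted p = 0.1101).

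Egr1, a zinc finger transcription factor of the immediate early response, rose from 2.58, 2.96 and 1.43 to 8.35, 9.35 and 7.04 FPKM, with 1.002, 1.51 and 0.41 FPKM in control (1.499 ± 0.24, limma adjusted p = 0.0423). Of 15 tested immediate early genes it was the only call, and 9 had a difference below 0 (median -0.08, and -0.24 or 0.0095 without HFD replicate 1 or 2). Junb was at 7.75, 6.56 and 7.08 and then 5.52, 4.54 and 4.48 FPKM (-0.48 ± 0.27, limma adjusted p = 0.4295), and Ier2 at 12.3, 15.2 and 13.4 and then 17.2, 19.4 and 15.3 FPKM (0.32 ± 0.13, limma adjusted p = 0.2759). Egr1 was called without control replicates 2 and 4 and without HFD replicate 3 (highest limma adjusted p = 0.1395 in the other fits).

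Among secreted and detoxifying proteins Mup15, a major urinary protein, was at 1276, 2925 and 1562 FPKM in HFD, 137, 128 and 83.7 FPKM in HFD+Pc and 85.4, 286.5 and 148 FPKM in control. The HFD libraries stood above all others. Mup15 fell by 3.97 ± 0.45 (limma adjusted p = 0.01208), a call lost without HFD replicate 2 or HFD+Pc replicates 3 or 4 (highest limma adjusted p = 0.06424). It was the only call among 19 tested urinary protein genes, whose median was 0.0079, after rescaling to equal sums -0.05 and, without HFD replicate 1 or 2, -0.29 or 0.30. Mup7, its most abundant close relative, was at 2835, 6513 and 3846 and then 1881, 2086 and 2017 FPKM (-1.05 ± 0.27, limma adjusted p = 0.1142). Ugt2b37, a UDP-glucuronosyltransferase, was at 2.73, 2.31 and 2.45 and then 1.06, 1.07 and 1.06 FPKM (-0.76 ± 0.09, limma adjusted p = 0.01208), the only call among 42 conjugating enzymes and NRF2 targets (median 0.13). Without HFD replicate 3 Ugt1a5 was called beside it. Ugt2b37 lost its call without HFD replicate 2 or HFD+Pc replicates 3 or 4 (highest limma adjusted p = 0.05709). No gene was called among 31 cytochrome P450 genes of families 1 to 3 and their receptors, 23 of bile acid synthesis and transport, 23 of glucose output and insulin response, 24 apolipoprotein genes, 41 of the urea cycle and amino acid catabolism, 19 of the growth hormone axis and sex-biased expression or 28 of the acute phase and inflammation. Without HFD replicate 3 Cyp2c55 and Klb, from the first 2 of these lists, were called higher. The 7 medians lay between -0.08 and 0.09, and with 1 library left out between -0.24 and 0.16, both from the acute phase list without HFD+Pc replicate 3 and without HFD replicate 2.

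Further protein-coding genes were called that belong to no list. Ybx1, an RNA-binding cold shock protein, fell from 72.5, 75.3 and 63.9 to 40.7, 46.3 and 52.7 FPKM (-0.59 ± 0.11, limma adjusted p = 0.04845). The splicing factor Sf3a2 fell by 0.59, Taf15 by 0.45, Safb by 0.44, Rbm8a, of the exon junction complex, by 0.40, Nsrp1 by 0.54 and Nop10 by 0.70. Tmem53, a membrane protein, rose from 9.04, 7.52 and 8.37 to 11.6, 13.4 and 13.1 FPKM (0.56 ± 0.09, limma adjusted p = 0.0423). Zbtb7b, a zinc finger transcription factor, fell from 12.6, 14.5 and 12.8 to 8.27, 8.47 and 8.73 FPKM (-0.59 ± 0.10, limma adjusted p = 0.0423). Pfdn1, a subunit of the prefoldin chaperone, fell by 0.65, Hmgb3, a chromatin protein, by 0.56, and Gnas, the stimulatory G protein subunit, by 0.59. Of these 12 genes Taf15, Safb and Hmgb3 were called in none of the 9 fits without 1 library, Zbtb7b in those without control replicate 2 and HFD replicate 3, and Nop10 in that without HFD+Pc replicate 4. Ybx1, Sf3a2, Rbm8a, Nsrp1, Tmem53, Pfdn1 and Gnas were called without HFD replicate 3 alone, and the highest limma adjusted p over the 12 genes was 0.1432, for Ybx1. No gene was called among 20 core hepatic transcription factors, of which 15 had a difference below 0 (median -0.16); Foxa1 was at 6.57, 6.65 and 7.47 and then 4.97, 4.99 and 5.80 FPKM (-0.34 ± 0.09, limma adjusted p = 0.1134).

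Markers of other liver cell types were compared in the same way. In bulk tissue fewer cells of a type and less RNA per cell cannot be told apart. All 17 tested macrophage and Kupffer cell markers had a difference below 0, and none was called (median -0.42, and between -0.63 without HFD replicate 3 and -0.32 without HFD+Pc replicate 4). Their summed level was 502 to 688 FPKM in HFD, 363 to 571 FPKM in HFD+Pc and 513 to 705 FPKM in control, and no marker of the list was at 0. Lyz2, lysozyme of macrophages, was at 118.5, 82.2 and 92.3 and then 70.7, 55.9 and 47.2 FPKM (-0.75 ± 0.21, limma adjusted p = 0.1407), and Cd68 at 14.2, 16.1 and 12.2 and then 11.2, 9.92 and 6.97 FPKM (-0.56 ± 0.16, limma adjusted p = 0.1537). Clec4f and Vsig4, which mark Kupffer cells, overlapped between the groups, with 86.8, 95.8 and 63.6 against 79.5, 70.4 and 62.6 FPKM and 54.9, 55.3 and 41.9 against 46.1, 29.8 and 24.1 FPKM. The part of the macrophage markers in the lower values of the interferon genes and of Hcls1, a protein of blood cells that was called lower (-0.54 ± 0.10, limma adjusted p = 0.04845, and in none of the fits without 1 library), was not tested.

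Igha, the heavy chain of immunoglobulin A, was at 5.80, 7.42 and 7.29 FPKM in HFD, 2.96, 3.47 and 2.26 FPKM in HFD+Pc and 4.45, 3.00 and 2.47 FPKM in control. It fell by 1.01 ± 0.18 (limma adjusted p = 0.04535), a call that was kept without control replicate 1 alone (without HFD replicate 3 limma adjusted p = 0.07147, highest 0.1432). Of 13 tested B and plasma cell markers it was the only call (0.65% of all genes were called). Of the 13, 9 had a difference below 0, 6 of them without overlap (9.59% of all genes were). The median was -0.35, and -0.74 or -0.22 without HFD+Pc replicate 1 or 4. Igkc, the kappa light chain, was at 46.3, 42.2 and 71.8 and then 29.8, 24.8 and 21.04 FPKM (-1.03 ± 0.21), and Jchain, which joins secreted immunoglobulin chains, at 3.01, 2.45 and 4.16 and then 1.75, 1.19 and 1.32 FPKM (-0.79 ± 0.16). Both had limma adjusted p = 0.06148. The summed level of the list was 164 to 177 FPKM in HFD and 112 to 191 FPKM in HFD+Pc, so the sums overlapped, and no marker of the list was at 0. The part of plasma cell number in the Igha values was not tested.

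Plvap, a protein of the diaphragms in fenestrated endothelium, fell from 26.6, 23.9 and 22.5 to 17.01, 17.9 and 17.7 FPKM, with 29.1, 31.2 and 30.4 FPKM in control (-0.45 ± 0.08, limma adjusted p = 0.04535), a call kept without HFD replicate 3 alone (highest limma adjusted p = 0.1395). The 15 tested endothelial markers had no call and a median of 0.12 (0.06 or 0.20 without HFD+Pc replicate 1 or HFD replicate 2), their sum was 135 to 166 FPKM in HFD and 156 to 165 FPKM in HFD+Pc, and Stab2, of sinusoidal endothelium, was at 6.94, 8.22 and 6.56 and then 9.20, 8.61 and 8.23 FPKM (0.24 ± 0.10, limma adjusted p = 0.2805). No call fell among 17 stellate cell and matrix markers, 6 bile duct markers, 6 T, NK and neutrophil markers, 13 erythroid markers, 18 pericentral and periportal markers or 5 adipocyte markers, nor among 20 hepatocyte markers, 19 heat shock genes, 15 circadian genes and 10 cell cycle genes. Their medians lay between -0.37 (adipocyte) and 0.12 (hepatocyte), and with 1 library left out between -0.56 (adipocyte, without HFD replicate 3) and 0.18 (hepatocyte, without HFD+Pc replicate 1). Without HFD replicate 3 Colec11, from the stellate cell list, and Fabp4, from the adipocyte list, were called lower.

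**Figure D4:**
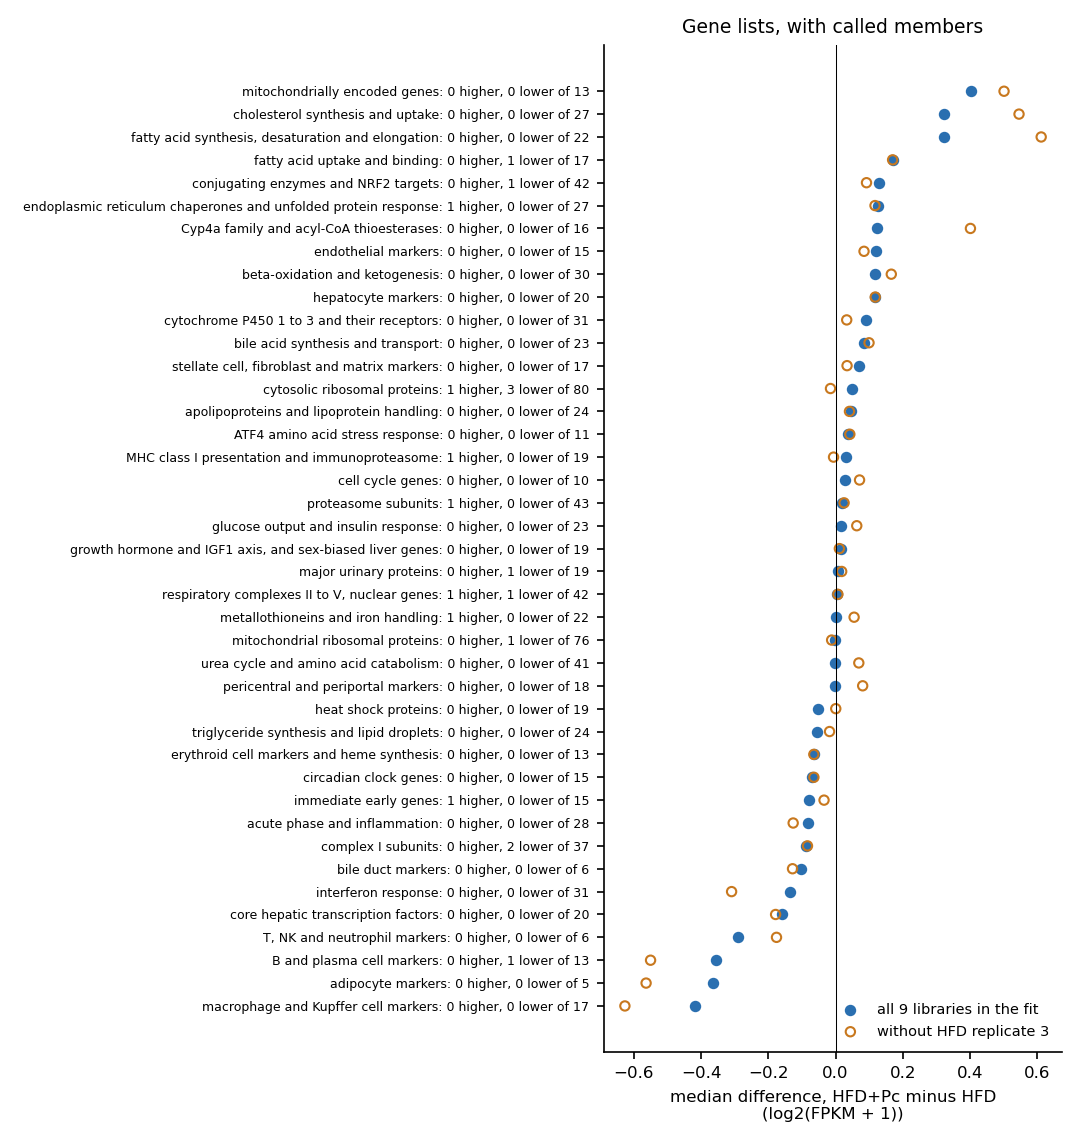
Median difference HFD+Pc minus HFD (log2(FPKM + 1)) over the tested genes of each list, with all libraries (filled) and without HFD replicate 3 (open), and the number called with all libraries beside each name. Fatty acid synthesis and cholesterol lie at 0.32 and macrophage markers at -0.42 with all libraries, and each list holds at most 4 calls.

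The called genes were short and often pseudogenes. Of the 48 lower genes 23 had up to 1000 bases of exon (47.9%), of the 21 higher genes 6 (28.6%), and of all genes tested 8.79%. The median length was 1065.5 bases for lower, 1223 for higher and 3913.5 for all genes. Of 425 tested processed pseudogenes 15 were called (3.53%), 6 higher and 9 lower, against 0.485% of protein-coding genes. The cause of this excess was not tested. Over all tested genes of up to 1000 bases the median difference was -0.04. Centred on the 9 libraries, their median was 0.094, 0.003 and -0.064 in the HFD libraries and -0.073, -0.038 and 0.039 in the HFD+Pc libraries, so the groups overlapped.

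Reads of a pseudogene can come from its parent gene, so reads recovered from the FPKM were summed over each called gene and its near-identical copies. Of 64 called genes with a GENCODE transcript 37 had at least 1 such copy with reads and 27 had none, 8 higher and 19 lower. For the 37, differences are here in log2(CPM + 0.1) of the recovered reads, CPM being reads scaled to the library size behind the FPKM. Their median size was 1.0022 for the gene alone and 0.47 for the sum. The sum differed in the same direction by at least 0.25 for 23 genes, in the same direction by less for 8 and in the other direction for 6. The 10 genes that themselves held at least 90% of the summed reads in HFD, so that the sum had to follow them, were Atp5k, Mrps21, Dnajb9, Rpl10, Psmb5, Zbtb7b, Nop10, Ybx1, Hmgb3 and Ppp1r14b. Of 14 genes that held under 10%, the sum kept the direction with at least 0.25 for 5. In these 14 the sum mostly follows the copies, so it cannot show whether reads of the gene came from a copy. No copy with reads was found for Fabp1, Egr1, Rps19bp1, Tap2, Nfu1, Ndufa3, Ndufc2, Nudt19, Plvap or Igha.

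Single cases follow. Scp2-ps2 fell from 79.5, 74.7 and 67.9 to 34.9, 40.9 and 39.9 FPKM (-0.92 ± 0.10, limma adjusted p = 0.008706, lost without HFD replicate 2, limma adjusted p = 0.05126), while Scp2, its parent and a sterol carrier protein, was at 878, 911 and 1006 and then 1092, 1143 and 1029 FPKM. Scp2-ps2 held 3.17% of the summed reads in HFD and 1.43% in HFD+Pc, and the sum differed by 0.20, near the 0.225 of Scp2 alone. Whether reads of Scp2-ps2 came from Scp2 was not tested. Gm6311, a copy of the ribosomal Rps2, differed by -1.47 alone and 0.40 with its copies, and Ugt2b37 by -1.19 alone and 0.09 with Ugt2b5 and others. Mup15 differed by -3.98 alone and -0.39 over 17 copies, and its share of their reads went from 12.04% in HFD to 1.0% in HFD+Pc. By contrast Gm13192 and Gm10443, both copies of Rps28, differed in the same direction as their parent: Rps28 was at 13.4, 13.8 and 9.38 and then 1.53, 6.00 and 5.30 FPKM (-1.44 ± 0.36, limma adjusted p = 0.1124), and the sum differed by -1.53. Gm8566 differed in the same direction as Sod1, the cytosolic superoxide dismutase, which was at 130.8, 115 and 103 and then 66.8, 80.6 and 86.8 FPKM (-0.57 ± 0.13, limma adjusted p = 0.07386), and the sum differed by -0.60. Ndufab1-ps (1.31 alone) and Ndufab1, the mitochondrial acyl carrier protein, gave a sum of 0.43. Rpl23a held 77.7% of the summed reads in HFD and 49.1% in HFD+Pc, and its sum differed by -0.91. Rpl41 differed by -1.0022 alone and -0.62 with Gm10076.

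The other genes among the 15 largest rises and 15 largest falls were mostly pseudogenes or unnamed models. Among the rises, Ndufab1-ps differed by 1.25, Ldha-ps2 by 0.89, Gm11847 by 0.89, Rpl17-ps3 by 0.86, AC122453.1 by 0.79, Hectd2os by 0.69, Ftl1-ps1 by 0.66, 1110065P20Rik by 0.64, Gm4737 by 0.62, Gm11451 by 0.61 and 2610528J11Rik by 0.59. Gm4737 was at 102, 112 and 108 FPKM in HFD, 158, 168 and 172 FPKM in HFD+Pc and 175, 188 and 199 FPKM in control, lowest in the HFD libraries. Its copy Ahcy (99.7% identity) was at 600, 620 and 615 FPKM in HFD and 722, 684 and 681 FPKM in HFD+Pc. In control Ahcy was at 838, 938 and 1038 FPKM, also lowest in HFD, and it was not called (limma adjusted p = 0.4273). Gm4737 held 11.16% of the summed reads in HFD. In log2(CPM + 0.1) it differed by 0.63 alone and the sum by 0.23. Hectd2os lies antisense to another gene, and without the strand setting their reads cannot be told apart. Among the falls, 2 models with no Ensembl identifier differed by -1.70 and -1.34, Gm10297 by -1.11, Gm9385 by -1.04 and Gm13131 by -1.02. Of these 16 genes the first of those models and Gm9385 were called in all 9 fits without 1 library, Gm11847 in 7, Gm4737 and Rpl17-ps3 in 5 and the other 11 in 1 to 3. Gm9385 rested on few reads, 30, 33 and 24 in HFD and 9, 12 and 8 in HFD+Pc. Its largest copy was Rpl24 (99.8% identity), and it held 43.28% of the summed reads in HFD. Gm13131 had 9, 9 and 7 reads in HFD and 0, 3 and 1 in HFD+Pc. Its sum with Chpt1, of which it held 0.12% in HFD, differed by -0.0153. Next to the threshold, Ftl1-ps1, Hectd2os, Hcls1, Atp5g1 and Nudt19 were the last genes called, and Gm11361, Rps2-ps10, Dynlt1b, Dsc2 and Rps10-ps1 the first not called (limma adjusted p = 0.05045).

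**Figure D5:**
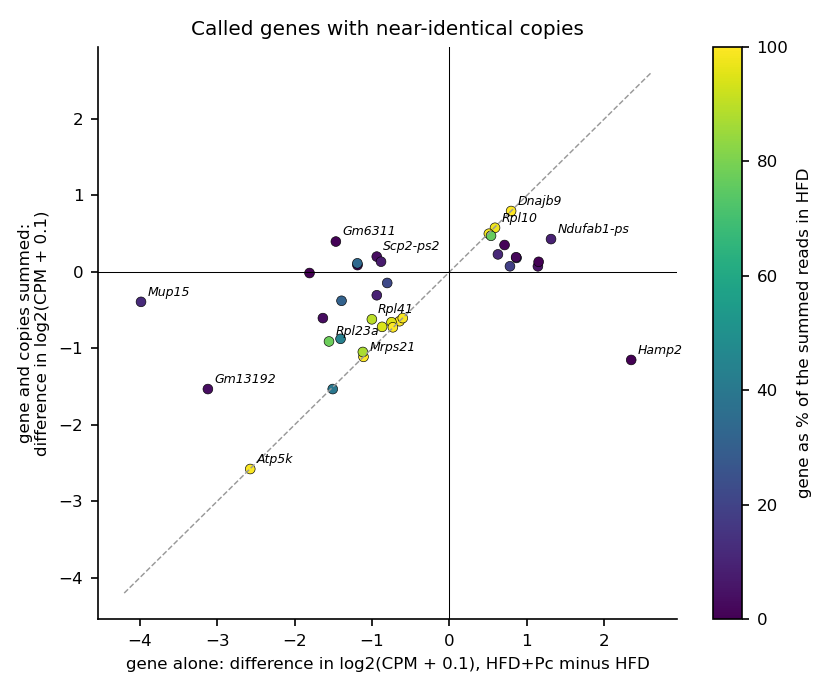
Difference HFD+Pc minus HFD for 37 called genes alone (horizontal) and for the gene summed with its near-identical copies (vertical), both in log2(CPM + 0.1) of recovered reads, with colour for the share of the sum held by the gene in HFD. Atp5k and Mrps21 lie on the dashed line of equality, Rpl23a and Rpl41 lie off it, Scp2-ps2 and Gm6311 fall alone but not with their copies, and Hamp2 rises alone while its sum differs by -1.15.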

How the data were processed

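RNA-seq of mouse liver gave 9 libraries, 3 per group, in 1 table of FPKM that the authors deposited. The submitters' processing notes name HISAT2 2.0.5 and the build GRCm39; the counting tool, its annotation and strand setting are not given in the sources used here. Each FPKM is a whole number of reads over gene length and library size. From these steps whole reads were recovered for 26129 of 26278 genes above 0 (99.4%, within 0.02 of a whole number), which gave the depths. The library size behind the FPKM was 108.42, 103.41 and 101.51% of the recovered reads in HFD and 100.72, 98.31 and 97.84% in HFD+Pc. In control it was 98.8, 97.43 and 100.32%. A larger library size lowers every FPKM of that library. The cause of this mismatch was not tested. Of 53700 Ensembl identifiers 52093 were given a symbol, and 307 gene models carry no such identifier.

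From the deposited FPKM, log2(FPKM + 1) was fitted with limma 3.58.1 (lmFit, eBayes with trend and robust estimation; R 4.3.3) over all 9 libraries with 1 mean per group, and p-values were adjusted by Benjamini-Hochberg over 10610 genes at a threshold of 0.05. An exact permutation test of 3 against 3 libraries cannot go below p = 0.1 and was not used. The fit was run on simulated counts with the same dispersion for every gene, no outlying library and no reads shared between copies. That run cannot show how the fit behaves where these data depart from those settings. Tables were made with Python 3.11.15, pandas 2.3.3, numpy 2.4.6 and scipy 1.17.1. The genes, comparisons and 42 gene lists were chosen with earlier results of these data known.

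The genes described with values were the 15 largest called rises and falls, up to 3 called genes per direction of each list or, with none called, 2 of lowest p, a panel of metabolic genes, the 5 on each side of the threshold and the 8 most variable within each group; not every gene of the panel is described. Outside this rule, after their values were seen, were chosen Acsl4, Atp5h, Atp5o, Clec4f, Cox8a, Elovl2, Elovl5, Fabp4, Fads1, Fads2, Hspa5, Hyou1, Ier2, Ifit3, Igkc, Irf7, Jchain, Junb, Mup7, Oasl2, Rpl28, Rps21, Rps28, Scp2, Slc40a1, Sod1, Stab2, Tap1, Tfrc, Ugt1a5, Vsig4 and mt-Co1, the called Gm6311, Gnas, Hmgb3, Nfu1, Nop10, Nsrp1, Pfdn1, Plvap, Ppp1r14b, Rbm8a, Safb, Scp2-ps2, Sf3a2, Taf15, Tmem53, Ybx1 and Zbtb7b, and Colec11, Ndufv3 and Psmd5. Copies were found with BLAST 2.17.0+ among GENCODE M21 transcripts (at least 90% identity over 100 bases and 50% of the shorter transcript), an analysis chosen after seeing the data. Alternatives were another pseudocount (0.1), other filters, scalings and variance models, the 6 libraries alone, the replicate number as a block, limma-voom on recovered reads and each library left out in turn. The main fit did not pair the samples by replicate number. Gene coordinates in GRCm39 were not used here; the promoter sequences come from RefSeq tables in GRCm38.p6.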

Additional observations from a re-analysis of the deposited data

How the results depend on the processing

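The 69 calls (21 higher, 48 lower) depended on the setting. All 69 genes kept their sign in the 20 alternatives, but in most of these the sign was fixed in advance. The lack of overlap fixed it in the fits without 1 library and with the other pseudocount. The other filters, the other variance model and the 6 libraries alone left the group means of each gene unchanged. The kept sign is therefore no support for the calls. The 6 HFD and HFD+Pc libraries alone gave 22 calls (6 higher, 16 lower), no filter on low values 3 (2 and 1; 25071 genes tested), a filter at 0.1 FPKM 29 (10 and 19), TPM 111 (92 lower), quantile normalization 120 (37 and 83), eBayes without trend and robust estimation 39 (25 lower), and limma-voom on recovered reads 122 (48 and 74), of which 58 were among the 69. Leaving out 1 library gave 5 calls (without HFD replicate 2) to 155 (without HFD replicate 3), 1 to 48 higher and 3 to 107 lower. A pseudocount of 0.1 gave 78 calls, and the filter over all 9 libraries and median-of-ratios scaling 69 each. Of the gene lists 13 held a call, against 7 with the 6 libraries alone, 1 without a filter, 8 at 0.1 FPKM and 1 to 21 without 1 library. Genes of up to 1000 bases were 42.0% of the calls, against 68.2%, 66.7% and 72.4% in those 3 fits and 38.1% to 76.9% without 1 library. With limma-voom on recovered reads they were 30.3%, the lowest share of all settings. The cause of these shifts was not tested.

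HFD and HFD+Pc share only replicate numbers 1 and 3. Deviations of same-numbered libraries correlated between -0.132 and 0.055 over 6 pairs and those of other numbers between -0.11 and 0.141 over 21. No pairing by number shows in these values, but so few pairs cannot exclude it. With the replicate block 1 gene was called, 0 higher and 1 lower (Atp5k), in 1 list, and 100% of the calls were of up to 1000 bases.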

Other observations

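Some genes with a mean of at least 5 FPKM over the 6 libraries varied widely within a group, and belong to no comparison. Those described here come from the 8 with the largest range within HFD and the 8 within HFD+Pc. Their wide spread is therefore a result of that choice. Within HFD, Mup19, a urinary protein gene, was at 336, 11.7 and 612 FPKM and Mup13 at 27.1, 847 and 68.9 FPKM in replicates 1, 2 and 3, so that HFD replicate 2 was low in the first and high in the second. The acute phase genes Saa1 and Saa2 were at 35.7, 244 and 9.43 FPKM and 3.14, 63.9 and 1.68 FPKM, highest in HFD replicate 2. Within HFD+Pc, Saa1 was at 10.9, 103 and 9.08 FPKM and Saa2 at 0.95, 19.4 and 0.61 FPKM in replicates 1, 3 and 4, and Orm2, an acute phase plasma protein, at 4.80, 51.7 and 5.20 FPKM. All 3 were highest in HFD+Pc replicate 3. In that library Mup19 (822, 142 and 581 FPKM) and Mup13 (284, 49.6 and 272 FPKM) were lowest and Mup18 (19.3, 96.6 and 6.88 FPKM) was highest. Cyp26a1, which degrades retinoic acid, was at 2.68, 8.51 and 19.7 FPKM in HFD+Pc.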
